A study of Drosophila melanogaster with 6 samples.

Results

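Mt2, MBD-like, MBD-R2 and Tet are genes of Drosophila melanogaster related to the DNA methylation machinery of mammals, and they were taken by symbol from the deposited gene table. All 4 were found among its 17737 genes, and all 4 were among the 9495 genes with enough reads to test. The 4 were chosen by name, with earlier results of these data known. Their transcripts were measured by RNA sequencing of larval brains of the third instar, with 3 DNMT3L and 3 control libraries. For DNMT3L brains, elavC155-Gal4 was crossed to w/w flies with P(UAS-DNMT3L,w+) over the balancer Cyo and with TM2 over TM6B. Control brains were labelled elavC155-Gal4, with no cross named. Both groups thus carried the driver, but the labels do not give its copy number. The groups also differ in the chromosomes brought in by the second parent stock. Effects of these differences cannot be told apart from those of DNMT3L. elavC155-Gal4 expresses the yeast activator Gal4 in neurons, so the transgene is driven in neurons while the libraries hold RNA of the whole dissected tissue. DNMT3L, which has no catalytic activity of its own, binds and stimulates the de novo DNA methyltransferases of mammals. Whether transgenic larvae were picked over those with Cyo is not stated in the labels. Nor is it stated that each library stands for different animals, and p-values then cover only the spread between these samples, which may be technical. The level of the transgene itself was not analysed here.

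Cytosine methylation of DNA in mammals is laid down by DNA methyltransferases, read by proteins with a methyl-CpG-binding domain and removed after oxidation by TET dioxygenases. Drosophila has no orthologue of the maintenance or de novo enzymes and very little methylcytosine in its DNA, and the genes it retains act largely in other ways. Mt2 (Dnmt2) has the fold of a DNA methyltransferase and methylates cytosine in transfer RNAs. MBD-like is the fly relative of the mammalian MBD2 and MBD3 proteins and a subunit of the Mi-2/NuRD nucleosome remodelling and deacetylase complex. MBD-R2 is a subunit of the NSL complex, which holds the histone acetyltransferase Mof and binds promoters of widely expressed genes. Tet is the fly's TET dioxygenase, which has been tied there to hydroxymethylcytosine in RNA and to N6-methyladenine in DNA, and which is active in the nervous system.

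The 4 loci differ mostly in length. Mt2 (FBgn0028707) lies on chromosome 2L from 12096525 to 12097687 on the plus strand of the BDGP6 build, with 1114 exonic bases. MBD-like (FBgn0027950) lies on 3R from 9559760 to 9561533 on the plus strand, with 1225 exonic bases. MBD-R2 (FBgn0038016) lies on 3R from 12352143 to 12356265 on the minus strand, with 3864 exonic bases in 5 exons of a single annotated transcript. Tet (FBgn0263392) lies on 3L from 2786207 to 2879158 on the minus strand and spans 93.0 kb, with 13823 exonic bases. Its 6 annotated transcripts have 7 to 11 exons and 2 start sites, 4 of them starting at 2879158 and 2 at 2821103, and counts per gene do not separate them. No other gene of the deposited table or of the Ensembl annotation overlaps any of the 4, so an unknown strand setting does not split their reads with an antisense partner.

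Library totals lay between 17928420 and 18399526 reads in DNMT3L brains and between 18183491 and 19251845 reads in control brains. Levels below are read counts relative to library size (CPM), scaled by TMM, which adjusts library sizes for composition, as mean ± SD with n = 3 per group unless given per library. Control library 1 and DNMT3L library 1 stood apart from the rest, in opposite directions, along gene length. With the tested genes cut into 10 classes by exonic size, the longest class held 950 genes. In it the median log2 deviation from the 6-library mean was 0.84, 0.10 and 0.14 in DNMT3L libraries 1 to 3 and −1.12, 0.21 and −0.17 in control libraries 1 to 3. The shortest class had the opposite signs in both libraries 1, with medians of −0.48 in DNMT3L library 1 and 0.65 in control library 1. All markers of neurons, neuroblasts and glia were detected, so the label of brain tissue was met. Reads of fat body, muscle, cuticle, salivary gland, hemocyte and tracheal markers were also present, with summed levels that are given below.

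Tet had the largest difference of the 4 genes in these data. Its level was 705, 325 and 324 CPM in DNMT3L libraries 1 to 3, against 72.2, 310.0 and 184 CPM in control libraries 1 to 3. DNMT3L library 1 was the highest and control library 1 the lowest, and the groups did not overlap, although control library 2 lay just under DNMT3L libraries 2 and 3. Group means were 451 ± 220 CPM in DNMT3L brains and 189 ± 119 CPM in control brains, a log2 fold change of 1.26 ± 0.57 (SE), or 2.39-fold. The difference did not pass the test over all genes (edgeR quasi-likelihood, Benjamini-Hochberg adjusted p = 0.332; unadjusted p = 0.0637). Over all 9495 genes the groups did not overlap for 28.1%, with DNMT3L higher for 14.0%, so this pattern alone is common in these libraries. No gene was called by edgeR (0% of 9495), 1427 genes (15.0%, with 6.23% higher in DNMT3L) had an unadjusted p under 0.05, and DESeq2 called 292 genes (3.08%), none of them among the 4.

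Counting error was a small part of that spread. Tet had between 1187 and 13241 reads per library, for which counting alone gives a coefficient of variation of 0.869% to 2.9%. Its observed coefficient of variation was 48.7% in DNMT3L brains and 63.1% in control brains. Without both libraries numbered 1, its levels were 325 and 324 CPM in DNMT3L brains against 310.0 and 184 CPM in control brains, and the log2 fold change was 0.39 ± 0.24 (SE), or 1.31-fold (edgeR adjusted p = 0.576). Leaving out control library 1 alone gave 0.87 ± 0.44 (edgeR adjusted p = 0.488), and leaving out DNMT3L library 1 alone gave 0.77 ± 0.55 (edgeR adjusted p = 0.702).

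MBD-R2 was at 122, 102 and 108 CPM in DNMT3L libraries 1 to 3, against 83.7, 112 and 95.7 CPM in control libraries 1 to 3. DNMT3L library 1 was again the highest and control library 1 the lowest, and the groups overlapped. The means were 110 ± 10.5 CPM in DNMT3L brains and 97.0 ± 14.0 CPM in control brains, and the log2 fold change was 0.19 ± 0.16 (edgeR adjusted p = 0.479). With both libraries numbered 1 left out it was 0.01 ± 0.14 (edgeR adjusted p = 0.981).

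MBD-like, the NuRD subunit, was at 99.5, 107 and 102 CPM in DNMT3L libraries 1 to 3, against 118, 87.3 and 92.7 CPM in control libraries 1 to 3. The DNMT3L libraries lay close together, within 1.07-fold of each other, and above control libraries 2 and 3, while control library 1 was the highest of the 6. Means were 103 ± 3.55 CPM in DNMT3L brains and 99.3 ± 16.4 CPM in control brains, and the log2 fold change was 0.05 ± 0.16 (edgeR adjusted p = 0.855). Its sign turned, to −0.0452 without control library 2, to −0.0019 without control library 3 and to −0.0263 with upper-quartile scaling, and it was 0.19 ± 0.12 without control library 1 (edgeR adjusted p = 0.57).

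Mt2, the transfer RNA methyltransferase, was the least abundant of the 4, at 8.25, 12.2 and 10.02 CPM in DNMT3L libraries 1 to 3, against 17.0, 9.33 and 12.8 CPM in control libraries 1 to 3. Here DNMT3L library 1 was the lowest and control library 1 the highest, the reverse of Tet and MBD-R2. The groups overlapped, with means of 10.2 ± 1.99 CPM in DNMT3L brains and 13.0 ± 3.82 CPM in control brains and −0.36 ± 0.29 as the log2 fold change (edgeR adjusted p = 0.453). Without control library 1 it was −0.12 ± 0.26 (edgeR adjusted p = 0.867), and without both libraries numbered 1 it was 0.01 ± 0.26. Its 155 to 279 reads per library give a counting error of 5.99% to 8.03%, against an observed coefficient of variation of 19.6% in DNMT3L brains and 29.4% in control brains.

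**Figure D1:**
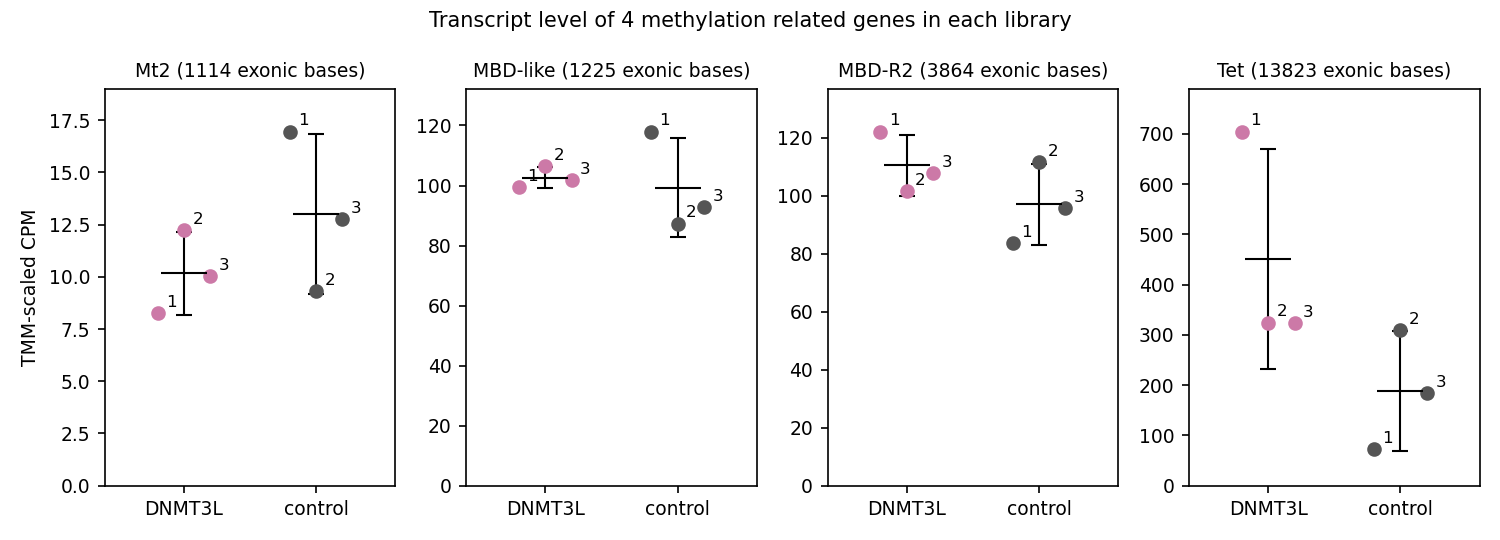
Level of each gene in TMM-scaled CPM (vertical axis, linear from 0) in DNMT3L and control libraries; points are single libraries with their replicate number, and bars give the mean ± SD (n = 3). The libraries numbered 1 hold the extremes of Tet (705 CPM in DNMT3L, 72.2 CPM in control), MBD-R2 and Mt2, while the DNMT3L libraries of MBD-like lie between 99.5 and 107 CPM.

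Levels can be set against each other only per length, for which the deposited FPKM (reads per kb of exon, scaled to the library's total) were used. MBD-like was the most abundant of the 4 in each of the 6 libraries, at 88.6 ± 3.29 FPKM in DNMT3L brains and 75.7 ± 5.69 FPKM in control brains. By its mean FPKM over the 6 libraries it stood at percentile 90.0 of the genes tested, MBD-R2 at 69, Tet at 65.4 and Mt2 at 41.4. MBD-R2 was at 30.3 ± 2.71 FPKM in DNMT3L brains and 23.9 ± 5.39 FPKM in control brains. Tet was at 34.4 ± 16.4 FPKM in DNMT3L brains and 13.3 ± 9.15 FPKM in control brains, and Mt2 at 9.66 ± 1.91 FPKM in DNMT3L brains and 10.8 ± 2.26 FPKM in control brains. MBD-R2 exceeded Tet in 5 of 6 libraries and Tet exceeded Mt2 in 5 of 6, so within these pairs the order did not hold beyond the spread. The exceptions were DNMT3L library 1, with Tet at 53.4 FPKM and MBD-R2 at 33.1 FPKM, and control library 1, with Tet at 4.46 FPKM and Mt2 at 13.0 FPKM. The 13823 exonic bases of Tet join the exons of all its transcripts, each of which holds only 9642 to 12610 bases. For MBD-R2 the single transcript has all 3864 bases. FPKM may thus understate Tet against MBD-R2.

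FPKM are scaled by the total count rather than by TMM, and this touched MBD-like. On that scale it had 85.1, 91.6 and 89.2 FPKM in DNMT3L libraries 1 to 3, against 82.3, 72.2 and 72.7 FPKM in control libraries 1 to 3, so its groups did not overlap. DNMT3L libraries lay above all control libraries in FPKM for 21.3% of the genes tested, and below them for 7.66%. limma on log2(FPKM + 1) gave a log2 fold change of 0.23 ± 0.11 for MBD-like (adjusted p = 0.294), beside a median over all genes of 0.12 on that scale and −0.03 in edgeR.

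The proportions of the 4 transcripts within a library were compared next, since a ratio of FPKM between genes of 1 library does not depend on its depth. Such a ratio does keep the differences between libraries along gene length. In the length trend fitted below, DNMT3L minus control was 0.92 at the size of Tet and 0.31 at that of MBD-R2 (log2). At the sizes of MBD-like and Mt2 it was −0.3 and −0.33. Tet over MBD-R2 was 1.61, 0.894 and 0.839 in DNMT3L libraries 1 to 3, against 0.241, 0.776 and 0.537 in control libraries 1 to 3. This ratio was higher in every DNMT3L library than in any control library, with a difference in mean log2 ratio of 1.20 (exact two-sided permutation p = 0.1, the smallest that 3 libraries against 3 can give; 0.45 adjusted over the 6 pairs). Tet over MBD-like ran from 0.27 to 0.627 in DNMT3L libraries and from 0.0542 to 0.315 in control libraries, which overlapped (exact permutation p = 0.3, adjusted 0.45). Tet over Mt2 ran from 2.14 to 6.88 in DNMT3L libraries and from 0.343 to 2.68 in control libraries, likewise overlapping (exact permutation p = 0.3, adjusted 0.45). Without both libraries numbered 1 these 3 differences in mean log2 ratio were 0.42, 0.23 and 0.42, against 1.20, 1.33 and 1.72 with all libraries. MBD-like over Mt2 ran from 7.92 to 11 in DNMT3L libraries and from 6.33 to 8.51 in control libraries (exact permutation p = 0.2, adjusted 0.45), and MBD-R2 over Mt2 from 2.39 to 4.26 in DNMT3L libraries and 1.42 to 3.45 in control libraries (exact permutation p = 0.4, adjusted 0.48). MBD-R2 over MBD-like was at 0.302 to 0.389 in DNMT3L libraries and 0.225 to 0.406 in control libraries (exact permutation p = 0.8, adjusted 0.8).

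The order of the 4 fold changes followed exonic size across the whole table. Over the 9495 genes tested, the median log2 fold change went up step by step with length, with −0.42 in the shortest of 10 classes by exonic size and 0.67 in the longest (Spearman's rho across genes 0.577, a description, since genes are not independent). Mt2 lay in the class of 851 to 1168 bases, where the median was −0.36 (quartiles −0.60 and −0.14), the same as its own −0.36. MBD-R2, at 0.19, lay in the class of 3254 to 4254 bases with a median of 0.24 (quartiles 0.00 and 0.51). MBD-like, at 0.05, lay above the upper quartile of its class of 1169 to 1473 bases, where the median was −0.28 (quartiles −0.54 and −0.05) and 17.5% of genes had a higher log2 fold change. Tet, at 1.26, lay above the upper quartile of the longest class, of 6024 to 71820 bases, with a median of 0.67 (quartiles 0.39 and 0.98). Of that class 117 of 950 genes (12.3%) had a higher log2 fold change than Tet, against 2.88% of all genes tested.

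**Figure D2:**
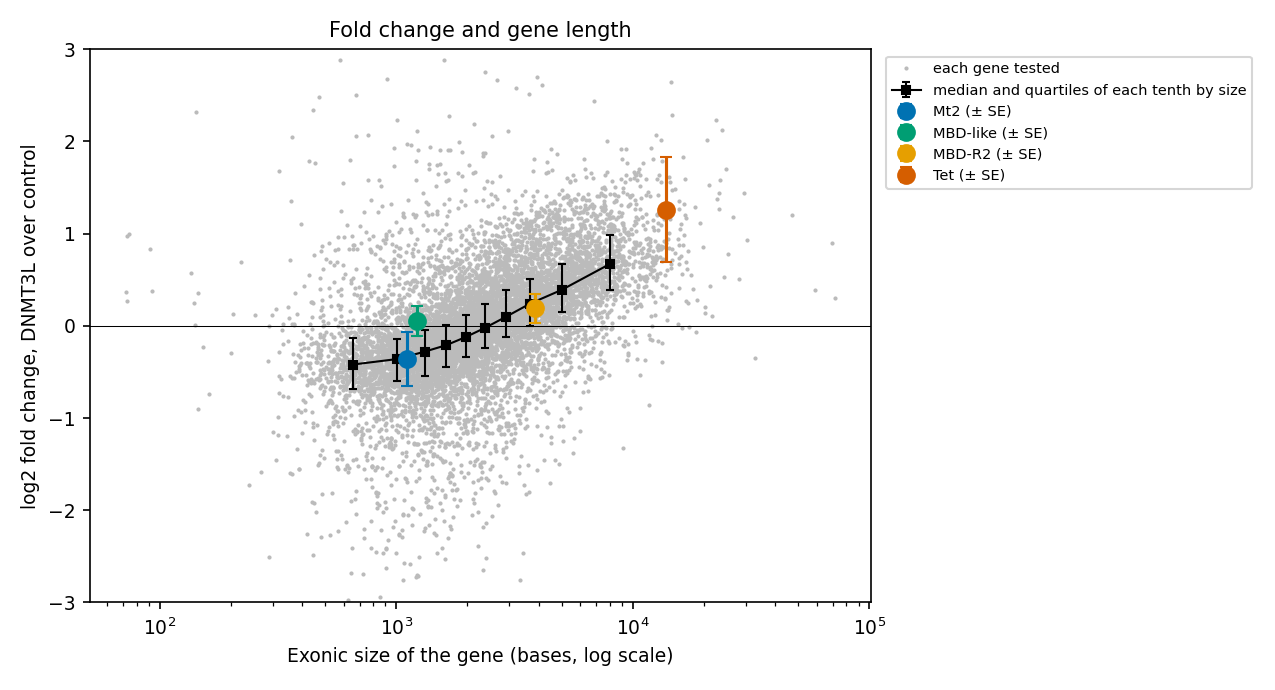
log2 fold change of DNMT3L over control (vertical axis) against exonic size in bases (horizontal log axis) for each gene tested (grey; 39 genes beyond ±3 are not drawn), with the median and quartiles of each of 10 size classes (black) and the 4 genes ± SE (colours). Mt2 and MBD-R2 sit near the black line at −0.36 and 0.19, and MBD-like and Tet sit above it at 0.05 and 1.26.

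To give each gene relative to genes of its length, the smooth trend of log2 deviation on log2 exonic size was taken out of each library. For Tet the trend alone was 1.06, 0.14 and 0.19 in DNMT3L libraries 1 to 3 and −1.41, 0.21 and −0.18 in control libraries 1 to 3. What remained of Tet after it was 0.39, 0.18 and 0.13 in DNMT3L libraries 1 to 3, against −0.43, 0.04 and −0.31 in control libraries 1 to 3. The DNMT3L libraries were still all above the control libraries, over a range of 0.82 in place of 3.29 on the log2 scale. With the trend removed, DNMT3L was higher without overlap for 16.8% of the genes tested, so this pattern too is common. With the trend as an offset of the edgeR fit, the log2 fold change of Tet was 0.46 ± 0.15 in place of 1.26 ± 0.57 (edgeR adjusted p = 0.166; unadjusted p = 0.0176). In that fit 14.5% of all genes had a higher log2 fold change than Tet, 22.1% had an unadjusted p under 0.05, and 13 genes (0.137%) were called.

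For MBD-like the groups overlapped in CPM but not after the same adjustment, as they had not in FPKM. Its remaining deviation was 0.34, 0.12 and 0.08 in DNMT3L libraries 1 to 3, against −0.20, −0.11 and −0.23 in control libraries 1 to 3, with no overlap. On this scale DNMT3L libraries lay above all control libraries for 16.8% of genes. The log2 fold change of MBD-like was 0.37 ± 0.11, which also did not pass (edgeR adjusted p = 0.151; unadjusted p = 0.0105), and 18.4% of genes had a higher one. With control library 1 left out as well it was 0.36 ± 0.11 (edgeR adjusted p = 0.201), and that of Tet was 0.36 ± 0.14 (edgeR adjusted p = 0.272). Mt2 had a log2 fold change of −0.0042 ± 0.17 once the trend was removed (edgeR adjusted p = 0.989), and MBD-R2 turned to −0.12 ± 0.12 (edgeR adjusted p = 0.526). What lies behind the length trend was not tested.

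**Figure D3:**
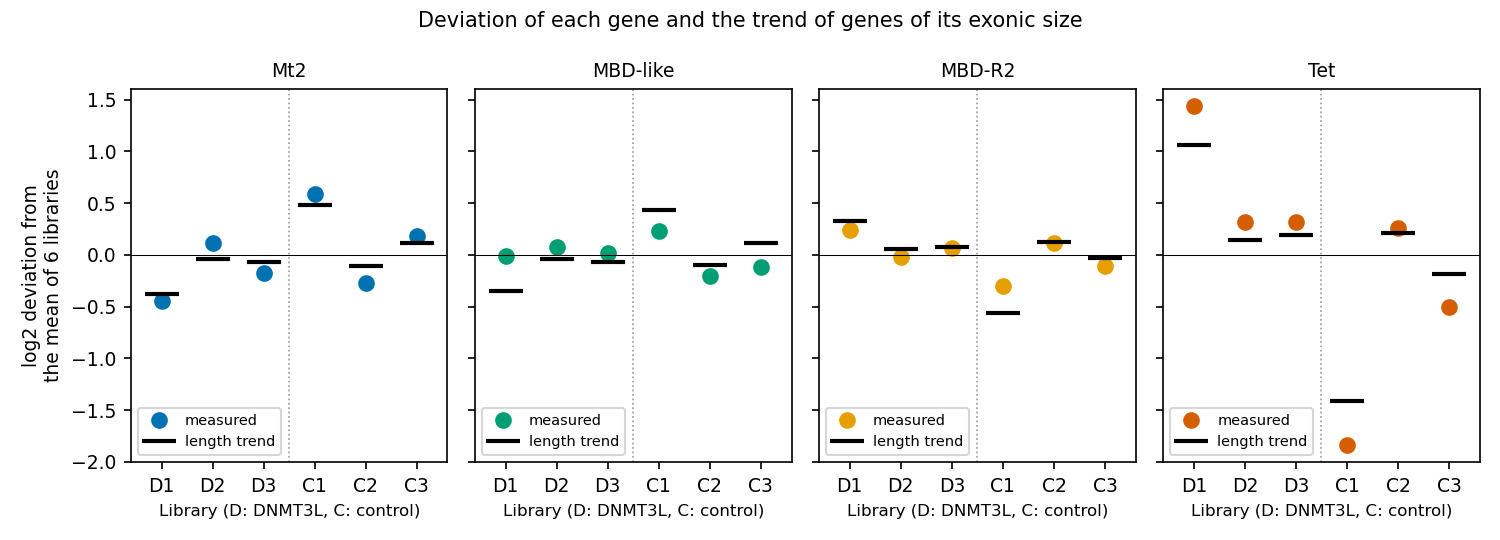
log2 deviation of each gene from its mean over 6 libraries (coloured points) and the deviation of genes of its exonic size given by the length trend (black bars), for DNMT3L libraries D1 to D3 and control libraries C1 to C3. The points of Mt2 lie within 0.16 of the bars and those of MBD-R2 within 0.27, whereas the points of MBD-like lie above the bars in D1 to D3 (by 0.34, 0.12 and 0.08) and below them in C1 to C3.

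The summed neuron markers were among many measures that moved with Tet. Across the 6 libraries, 1566 genes (16.5%) had a Pearson's r of log2 CPM above 0.95 with Tet. The summed level of 10 neuron markers (elav, nSyb, Syt1, brp, Syx1A, cpx, para, fne, Rdl and VGlut) was 2106, 1026 and 1300 CPM in DNMT3L libraries 1 to 3, against 195, 908 and 716 CPM in control libraries 1 to 3. The log2 fold changes of all 10 were above 0 (median 1.36, against 0.75 after removal of the length trend and 0.54 without both libraries numbered 1), and none was called by edgeR (4 had an unadjusted p under 0.05). These markers are long, with a median exonic size of 9485 bases, so a length effect and a difference in neuronal RNA cannot be told apart from them alone. In bulk tissue, fewer cells of a type and less RNA per cell cannot be told apart either. Tet amounted to 33.5%, 31.7% and 24.9% of the summed markers in DNMT3L libraries 1 to 3, and to 37.0%, 34.1% and 25.7% in control libraries 1 to 3, in CPM. Against this sum the groups overlapped, and the difference in mean log2 ratio was −0.10 with an SD of 0.23 in DNMT3L and 0.28 in control libraries (exact two-sided permutation p = 0.5; 0.5 adjusted over the 4 genes).

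The other 3 genes did not keep a steady proportion to the neuron markers. MBD-R2 was at 5.80% to 9.90% of the marker sum in DNMT3L libraries and 12.3% to 42.9% in control libraries (exact permutation p = 0.1, adjusted 0.267). MBD-like was at 4.73% to 10.4% in DNMT3L libraries and 9.61% to 60.5% in control libraries, and Mt2 at 0.392% to 1.19% in DNMT3L libraries and 1.03% to 8.69% in control libraries (exact permutation p = 0.2 and adjusted 0.267 for each). Neuroblast markers summed to 631 to 769 CPM in DNMT3L libraries and 326 to 614 CPM in control libraries, with all 8 log2 fold changes positive and none called by edgeR. Their median was 0.54, or 0.61 with the length trend removed, when 6 of 8 were positive and 1 was lower in DNMT3L without overlap. Glial markers overlapped between the groups, at 1327 to 2023 CPM in DNMT3L libraries and 1461 to 2021 CPM in control libraries. The summed markers of 4 tissues outside the brain were lower in DNMT3L libraries, without overlap, although not every marker was. Of single genes, 14.1% of all those tested were lower without overlap. Log2 fold changes were below 0 for 5 of 7 fat body, 6 of 9 muscle, 4 of 5 tracheal and 6 of 6 hemocyte markers, against 4962 of all 9495 genes. The fat body gene Fbp2 went strongly the other way, at 20.4 ± 3.75 CPM in DNMT3L brains and 0.931 ± 0.527 CPM in control brains (4.45 ± 0.49, edgeR adjusted p = 0.0794). Fat body markers summed to 862 to 1091 CPM in DNMT3L and 1287 to 2163 CPM in control libraries, muscle markers to 640 to 788 CPM in DNMT3L and 840 to 1150 CPM in control libraries. Tracheal markers summed to 351 to 531 CPM in DNMT3L and 690 to 805 CPM in control libraries, and hemocyte markers to 83.3 to 104 CPM in DNMT3L and 108 to 278 CPM in control libraries. Cuticle markers, of which Cpr47Ea was at 0 reads in all libraries, overlapped at 78.6 to 323 CPM in DNMT3L and 293 to 1056 CPM in control libraries. All 6 cuticle markers tested had log2 fold changes below 0 (median −1.61). Salivary gland markers went the other way, with all 7 above 0 (median 1.68, or 2.82 without both libraries numbered 1). Their sums overlapped, at 29.4 to 216 CPM in DNMT3L and 14.9 to 62.6 CPM in control libraries. Of these markers edgeR called none, and DESeq2 called 2 of fat body (Fbp2 higher and Lsp1gamma lower in DNMT3L) and, as lower in DNMT3L, 1 of cuticle, 1 of hemocytes and 2 of trachea. DESeq2 called 3.08% of all genes tested. The part of these tissues in the values of the 4 genes was not tested.

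**Figure D4:**
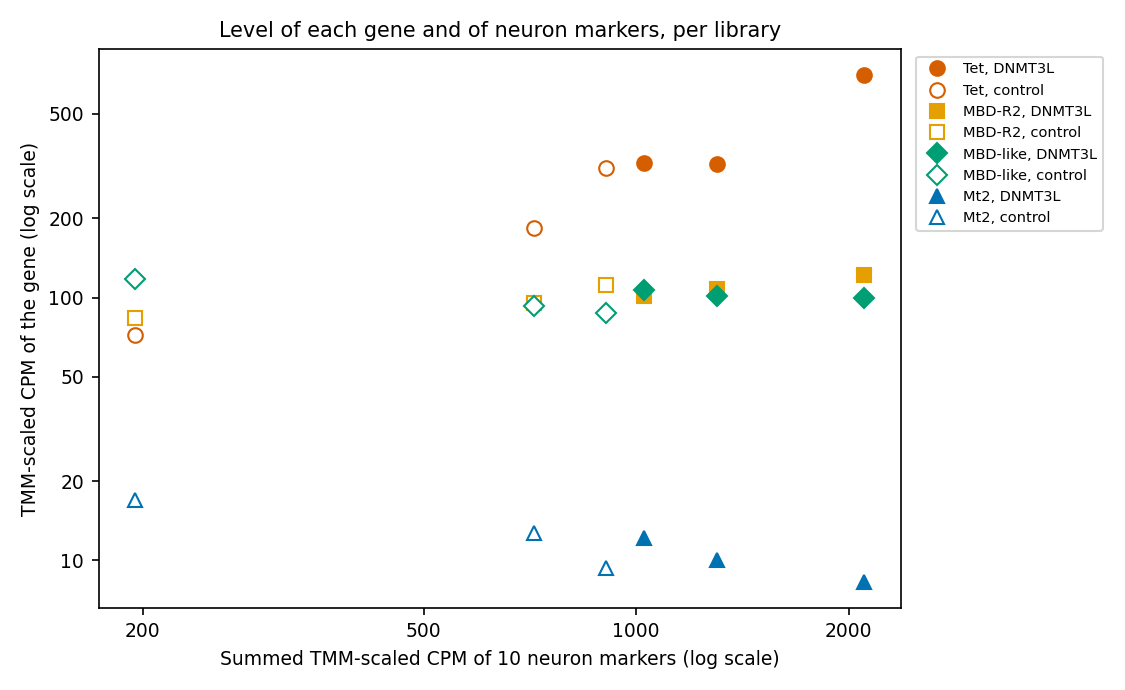
Level of each gene in TMM-scaled CPM (vertical log axis) against the summed CPM of 10 neuron markers (horizontal log axis) in each library, with filled symbols for DNMT3L and open symbols for control libraries. Tet tracks the marker sum, at 24.9% to 37.0% of it in all 6 libraries, while MBD-R2, MBD-like and Mt2 stay within a much narrower range of levels than the markers.

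The partners of MBD-like were examined as the subunits of the NuRD complex and of the related MEC complex of Mi-2 and MEP-1. None of 6 was called by edgeR or DESeq2, 5 had log2 fold changes above 0, as had 47.7% of all genes tested, and their median was 0.45, against −0.03 over all genes. With the length trend removed the median was 0.08, and without both libraries numbered 1 it was 0.05. The abundant catalytic subunits differed in length and in value. HDAC1, the histone deacetylase (2124 bases), was at 393 ± 52.5 CPM in DNMT3L brains and 373 ± 6.38 CPM in control brains, a log2 fold change of 0.08 ± 0.15. Mi-2, the ATP-driven remodeller (6600 bases), was at 542 ± 116 CPM in DNMT3L brains and 398 ± 119 CPM in control brains, a log2 fold change of 0.45 ± 0.27 that was −0.18 with the length trend removed. Caf1-55, a histone-binding subunit, had a log2 fold change of −0.06, and the subunit genes MTA1-like and simj had 0.52 and 0.44, which were 0.05 and 0.02 with the length trend removed. MEP-1 was scarce, at 7.77 ± 5.05 CPM in DNMT3L brains and 4.40 ± 3.76 CPM in control brains. Its log2 fold change was 0.82 ± 0.79, the highest of the 6, and 0.41 with the length trend removed. Without both libraries numbered 1 the value of MEP-1 was −0.27.

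The partners of MBD-R2, the other NSL subunits and the chromosomal protein gene Chro, were likewise not called (0 of 7 by edgeR or DESeq2), with a median log2 fold change of 0.15, or 0.03 with the length trend removed and also without both libraries numbered 1. Chro was at 339 ± 16.7 CPM in DNMT3L brains and 255 ± 49.6 CPM in control brains, and its groups did not overlap (log2 fold change 0.41 ± 0.18, edgeR adjusted p = 0.332). Rcd5 was at 87.9 ± 1.5 CPM in DNMT3L brains and 104 ± 5.08 CPM in control brains, also without overlap but in the other direction (−0.24 ± 0.12, edgeR adjusted p = 0.334). Over all genes, 14.0% did not overlap with DNMT3L higher and 14.1% with DNMT3L lower, and for both Chro and Rcd5 the groups overlapped once the length trend was removed. The acetyltransferase gene mof was at 44.0 ± 3.64 CPM in DNMT3L brains and 39.6 ± 8.73 CPM in control brains (0.15 ± 0.20). The scaffold gene nsl1 had a log2 fold change of 0.63, Rcd1 0.33, wds 0.14 and dgt1 −0.03.

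Other genes of the same chemistry were set beside the 4. Of the other genes whose proteins carry a methyl-CpG-binding-like domain, tou (12968 bases) had a log2 fold change of 0.84 ± 0.50, sba 0.55 ± 0.34 and egg, which encodes an H3K9 methyltransferase, 0.10 ± 0.15. With the length trend removed these were 0.01, −0.05 and −0.24, so the value of tou, close to Tet in length, was near 0, against 0.46 for Tet. The difference between tou and Tet was not tested. Nsun2 and Nsun5, the RNA cytosine methyltransferases that act beside Mt2, both had negative values with all libraries. Nsun2 was at 73.0 ± 6.93 CPM in DNMT3L brains and 94.1 ± 17.8 CPM in control brains, without overlap (−0.37 ± 0.18, edgeR adjusted p = 0.334), and it stayed at −0.37 and without overlap when the length trend was removed. Without control library 1 it was −0.20, and without both libraries numbered 1 it was −0.12. With all libraries and the length trend removed, 32.1% of all genes did not overlap, 15.3% with DNMT3L lower. Nsun5 was at 44.7 ± 4.25 CPM in DNMT3L brains and 54.8 ± 21.1 CPM in control brains (−0.29 ± 0.28). Without control library 1 the value of Nsun5 turned to 0.06, and the median of the pair was −0.07 in place of −0.33.

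Enzymes that supply and recycle the methyl donor S-adenosylmethionine, with the folate cycle, had a median log2 fold change of −0.61 over 11 genes, or −0.41 with the length trend removed. None was called by edgeR or DESeq2, 9 of 11 were negative, and for 5 the groups did not overlap with DNMT3L lower, against 14.1% of all genes. Without control library 1 the median was −0.32, and without both libraries numbered 1 it was −0.18. Summed over the list, levels were 1021, 1410 and 1373 CPM in DNMT3L libraries 1 to 3, against 1909, 1296 and 1499 CPM in control libraries 1 to 3, which overlapped. Fat body markers summed to 887, 862 and 1091 CPM in DNMT3L libraries 1 to 3, against 2163, 1287 and 1539 CPM in control libraries 1 to 3, highest in control library 1 as were the methyl donor genes, and their part in these values was not tested. By mean CPM, with length not taken into account, the first were Sam-S, the S-adenosylmethionine synthetase, at 484 ± 68.0 CPM in DNMT3L brains and 447 ± 19.5 CPM in control brains, and Ahcy, which hydrolyses S-adenosylhomocysteine, at 174 ± 48.3 CPM in DNMT3L brains and 269 ± 97.6 CPM in control brains. Their log2 fold changes were 0.12 ± 0.16 and −0.63 ± 0.33 (edgeR adjusted p = 0.637 and 0.335). Without both libraries numbered 1 they were 0.22 and −0.09.

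Base excision repair, the route by which mammals replace oxidised methylcytosine, had 0 of 6 genes called by edgeR or DESeq2 and a median log2 fold change of 0.11. The highest mean CPM, with length not taken into account, were those of Rrp1, an apurinic endonuclease gene, at 312 ± 19.6 CPM in DNMT3L brains and 322 ± 22.7 CPM in control brains (−0.04 ± 0.14), and of Thd1, the thymine DNA glycosylase gene, which is long. Thd1 (13125 bases) was at 156 ± 55 CPM in DNMT3L brains and 85.5 ± 38.9 CPM in control brains, a log2 fold change of 0.86 ± 0.42 that was 0.03 with the length trend removed. The 9 genes that write and read N6-methyladenosine in RNA had a median of 0.18, 7 of them positive and none called by edgeR or DESeq2. With the length trend removed the median was −0.08, with 3 positive, and without both libraries numbered 1 it was −0.05. The median hides genes that went both ways. With the trend removed the groups did not overlap for 3 of the 9 with DNMT3L higher and for 2 with DNMT3L lower. Over all genes these shares were 16.8% and 15.3%. By mean CPM, with length not taken into account, the reader Ythdc1 and the writer subunit nito came first. Ythdc1 was at 300.4 ± 54.4 CPM in DNMT3L brains and 266 ± 14.6 CPM in control brains (0.18 ± 0.17), and nito at 208 ± 25.6 CPM in DNMT3L brains and 181 ± 38.7 CPM in control brains (0.20 ± 0.21). The groups overlapped for both.

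**Figure D5:**
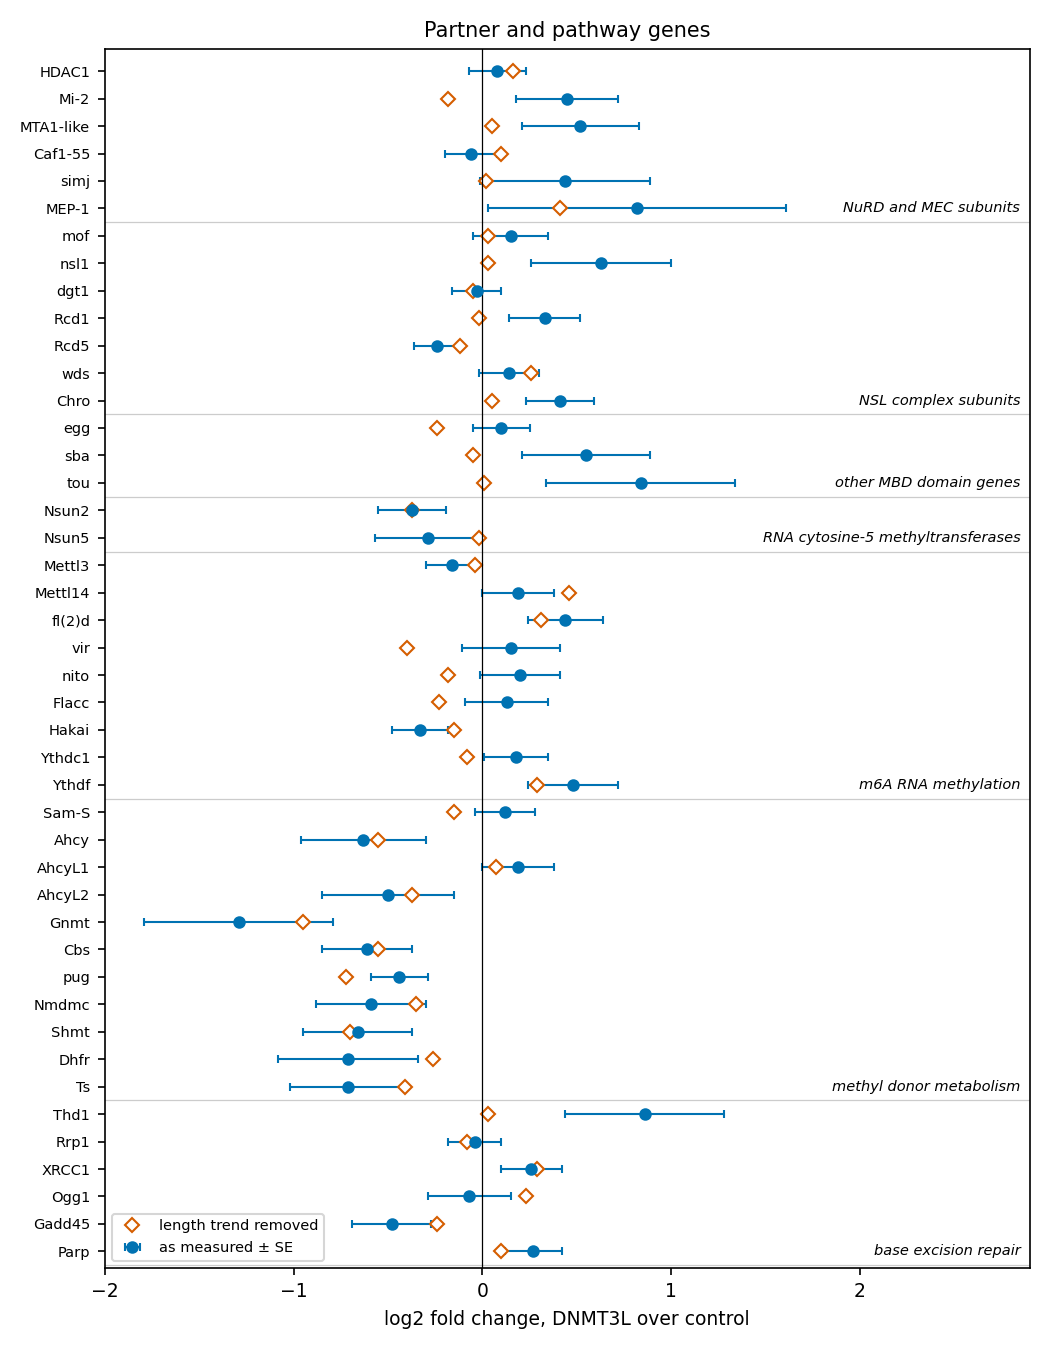
log2 fold change of DNMT3L over control for each partner and pathway gene, as measured ± SE (filled circles) and with the length trend removed (open diamonds), grouped by list. Values of Mi-2, MTA1-like, nsl1, tou and Thd1 move to between −0.18 and 0.05 with the trend removed, while those of Nsun2 and Ahcy are −0.37 and −0.55. Not all long genes come near 0, with MEP-1 (5719 bases) at 0.41 and egg (3937 bases) at −0.24. Without both libraries numbered 1 (not drawn), Nsun2 and Ahcy were at −0.12 and −0.09.

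The 4 genes were also described by which genes varied most like them over the 6 libraries (Pearson's r of log2 CPM, a description of likeness in which libraries with a shared length trend pull many genes together). Tet was most like Evi5 (r = 0.9997), Adar (r = 0.9996) and pdm3 (r = 0.9993), with 6299, 8758 and 5381 exonic bases, and 1566 genes (16.5%) had r above 0.95 with it. With the length trend removed, r with Tet stayed at 0.99 for Evi5 and 0.98 for pdm3 and was −0.06 for Adar. MBD-R2 was most like DNApol-iota, Sra-1 and SMC3 (r = 0.9973, 0.9973 and 0.9972), among 1060 genes above 0.95. Mt2 was most like Mgstl, CG11986 and CG14207 (r = 0.999, 0.9987 and 0.9986), of 1183, 1262 and 1524 bases. MBD-like had few such companions, 16 genes (0.169%) above 0.95, led by spab, CG31460 and Smyd4-1 (r = 0.9843, 0.983 and 0.9812). After removal of the length trend, r with MBD-R2 was 0.83, 0.56 and 0.84 for its 3 genes in the order named. For those of Mt2 it was 0.98, 0.96 and 0.82, and for those of MBD-like 0.97, 0.84 and 0.01. Among the 4 genes themselves, Mt2 and MBD-R2 mirrored each other (r = −0.99), MBD-R2 and Tet varied together (r = 0.97), and MBD-like stood least tied to the rest (r between −0.59 and 0.65). With the length trend removed these were 0.24 for Mt2 with MBD-R2, −0.68 for MBD-R2 with Tet and 0.93 for MBD-like with Tet.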

How the data were processed

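Brains of 3 DNMT3L and 3 control samples were grouped by the genotype labels. Per the labels' protocols, either poly(A) RNA was isolated or rRNA was removed, and cDNA was primed with random primers. The submitters' processing notes name HISAT2 2.0.1 and HTSeq 0.6.1, bcl2fastq 2.17.1.14 and cutadapt 1.9.1, and also DESeq2. They name BDGP6 and dm6 as builds. No source used here gives the strand setting or annotation release. The deposited table holds raw read counts per gene, the authors' FPKM values and exonic sizes, and the FPKM could be recomputed from counts, exonic size and total count within 0.011 for 100% of values. Of 17737 gene identifiers 17599 were in Ensembl release 115, with 99.24% at identical coordinates.

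Counts were tested with edgeR 4.0.16 (filterByExpr, TMM, glmQLFit, glmQLFTest, two-sided, R 4.3.3) over 9495 genes, with Benjamini-Hochberg adjustment and a threshold of 0.05. The filter removed 8242 genes. SEs are those implied by the F statistic, and the common biological coefficient of variation was 31.5%. The length trend is a loess fit (span 0.5) of each library's log2 deviation on log2 exonic size, entered as an offset. Ratios were compared by exact permutation over libraries. Alternatives used DESeq2 1.42.0 on the same genes, limma 3.58.1 on log2(FPKM + 1) and log2(FPKM + 0.1), other size factors, no filter, a replicate block and libraries left out. The steps were tested on simulated data. Scripts used Python 3.11.15, scipy 1.17.1 and matplotlib 3.10.9.

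The 4 genes and the 16 lists (114 entries, all matched) were chosen with earlier results of these data known. The rule for named genes took the 4 genes, all NuRD, NSL, methyl-CpG-binding domain and RNA cytosine methyltransferase genes, the 2 genes of highest mean CPM of each other list where none was called, and the 3 genes most alike to each of the 4. Comparisons of the 4 genes with summed neuron markers were added after the data were seen. The markers Cpr47Ea (no reads), Fbp2 and Lsp1gamma were named after their values were seen. Counting errors cover counting only.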

Additional observations from a re-analysis of the deposited data

How the results depend on the processing

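No alternative called any of the 4 genes. Over 16 alternatives the adjusted p ran from 0.166 to 0.702 for Tet, 0.151 to 0.997 for MBD-like, 0.276 to 0.981 for MBD-R2 and 0.22 to 0.991 for Mt2. Tet was positive in all 16, with log2 fold changes from 0.36 to 1.82. Leaving out each library in turn gave 0.77 to 1.82 for Tet, 0.09 to 0.29 for MBD-R2, −0.0452 to 0.19 for MBD-like and −0.55 to −0.12 for Mt2. The sign turned for MBD-like with upper-quartile factors (−0.0263), for MBD-R2 with the length trend removed (−0.12), also when control library 1 was left out as well (−0.0145), and for Mt2 without both libraries numbered 1 (0.0105) and without control library 1 with the length trend removed (0.0614). The cause of these turns was not tested. That combination, and the list medians without both libraries numbered 1, were added after the data were seen.

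Against 0 genes called over the whole table, 2 were called with RLE size factors, 6 with no low-count filter, 292 with DESeq2, 13 with limma on log2(FPKM + 1), 11 with limma on log2(FPKM + 0.1), 16 without both libraries numbered 1, 13 with the length trend removed and 22 with that and without control library 1. Leaving out single libraries called 0 in each case.

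With the length trend removed, median log2 fold changes moved by more than the replicate spread for other methyl-CpG-binding domain genes (−0.0468, against 0.55) and N6-methyladenosine genes (−0.0813, against 0.18). Without both libraries numbered 1 they moved for those lists (−0.0005 and −0.0545), RNA cytosine methyltransferases (0.0079), methyl donor genes (−0.18) and base excision repair genes (0.17), and so did the ratios of Tet to MBD-R2 (0.42), MBD-like (0.23) and Mt2 (0.42). The other medians and ratios stayed within it.

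Whether the replicate numbers pair the samples is not known. Same-numbered DNMT3L and control libraries deviated in opposite directions (r = −0.66, −0.54 and −0.18 across genes), and no sample correlated best with its own number. These correlations include the length trend, which ran in opposite directions in both libraries numbered 1, so they cannot exclude pairing. With the replicate block 0 genes were called, 458 had an unadjusted p under 0.05 in place of 1427, and the log2 fold change of Tet was 1.33 ± 0.73 (edgeR adjusted p = 0.652). Among the 4 genes depth limits Mt2 most, with as few as 155 reads in DNMT3L library 1, a counting error of 8.03%. Its observed coefficient of variation was larger, at 19.6% in DNMT3L brains and 29.4% in control brains.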
